A study of Mus musculus with 6 samples.

Results

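The sarcomeric and cytoplasmic myosin light chains Myl1, Myl2, Myl3, Myl4, Myl6 and Mylpf were examined together with Mybph, which encodes myosin-binding protein H. Every probe set that the platform annotation assigns to one of these 7 gene symbols was taken, which gave 9 probe sets of the 12422 that are not array controls, and 7 genes of 8251 with a probe set of their own. The 7 genes had been chosen from an earlier reading of the signals of these same 6 arrays, so their values are given as a description, with no test. Of the 9 probe sets, 7 lay above the measurement floor on all 6 arrays. The Myl2 probe set passed the floor on 1 of 6 arrays and the Myl6 probe set on none.

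RNA came from the tibialis anterior, a fast muscle of the front of the shin, of mice killed 48 h after a bout of contractions. In the eccentric group the muscle was made to contract 50 times while it was being lengthened, and in the isometric group it contracted 50 times at fixed length. The control muscles were those of the opposite legs, which contracted only as often as a reading of isometric torque required, so all 3 groups had been stimulated to some degree. The labels do not say which animals gave the control muscles, and they give no strain, sex or age. For each group the RNA of 4 animals was combined into 1 pool, and the pool was divided over 2 Affymetrix MGU74Av2 arrays, called A and B here. A group is therefore 1 biological sample, and the spread between its arrays covers labelling and hybridisation but not animals. In such whole-muscle RNA, fewer cells of a type and less RNA per cell cannot be told apart.

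Muscle myosin is a hexamer of 2 heavy chains, each of which carries an essential and a regulatory light chain at the neck that joins the motor head to the rod. The light chains stiffen this lever arm, and phosphorylation of the regulatory chain tunes force. Fast and slow fibres, heart chambers, developing muscle and non-muscle cells use different light chain genes. Mylpf encodes the regulatory chain and Myl1 the essential chain of fast skeletal fibres. Myl2 and Myl3 are their counterparts in slow fibres and the heart ventricle, Myl4 is the essential chain of the atrium and of embryonic muscle, and Myl6 is the essential chain of smooth muscle and non-muscle cells. Myosin-binding protein H is a thick filament protein related to the myosin-binding proteins C.

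The promoters of 3 members are shown because these were the members whose signals differed most between the eccentric and the isometric pool. They are the 250 bases before the annotated start, from RefSeq on GRCm38.p6, on the plus strand at chr1:134193198-134193447 for Mybph, chr7:127211358-127211607 for Mylpf and chr9:110763428-110763677 for Myl3. Capitals mark letters that match a searched motif, each read on both strands. The E-box was spelled CANNTG and the M-CAT element was spelled CATTCC for this search. The TATA box was searched as TATAAA, and the CArG box and the MEF2 box in their usual degenerate forms.
Mybph: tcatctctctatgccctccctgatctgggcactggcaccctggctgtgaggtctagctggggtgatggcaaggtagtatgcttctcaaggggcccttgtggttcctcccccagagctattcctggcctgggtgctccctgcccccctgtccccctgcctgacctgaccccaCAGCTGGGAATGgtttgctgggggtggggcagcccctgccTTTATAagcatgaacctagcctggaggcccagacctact
Mylpf: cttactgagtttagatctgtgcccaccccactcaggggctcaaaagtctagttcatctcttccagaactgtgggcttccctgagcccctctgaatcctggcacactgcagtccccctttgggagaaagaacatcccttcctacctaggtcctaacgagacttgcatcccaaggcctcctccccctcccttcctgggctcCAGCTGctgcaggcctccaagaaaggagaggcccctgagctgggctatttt
Myl3: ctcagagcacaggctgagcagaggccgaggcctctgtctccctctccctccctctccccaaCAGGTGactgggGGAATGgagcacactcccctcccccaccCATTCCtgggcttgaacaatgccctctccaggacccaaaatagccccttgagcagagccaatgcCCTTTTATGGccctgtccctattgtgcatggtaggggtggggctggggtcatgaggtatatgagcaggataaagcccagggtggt

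Windows of 300 bases, from 250 before to 50 after the start, were searched, and all 7 members had at least 1 such window. E-boxes are the sites of the myogenic factors, M-CAT elements those of TEAD factors and CArG boxes those of serum response factor. An E-box stood in 72.3% of the 32851 windows of all genes, an M-CAT element in 14.7%, a TATA box in 13.6%, a CArG box in 1.63% and a MEF2 box in 3.19%. Positions are those of a motif's first base, counted back from the start. The Mybph window held an E-box at -79, an M-CAT element at -73 directly against it and a TATA box at -39. An E-box followed directly by GGAATG, as in Mybph and read on both strands, occurred in 24 windows (0.0731%). This arrangement was looked for after the Mybph sequence had been seen, and Mybph was the only one of the 7 genes with it. An E-box beside an M-CAT element turned the other way was not counted. Mylpf held 1 E-box, at -51. Myl3 held an E-box at -189, M-CAT elements at -177 and -149 and a CArG box at -85. Myl1, on the minus strand, held an E-box, a TATA box and an M-CAT element, at -224, -95 and -80. The Myl4 window held none of the 5 motifs. Each of Myl2 and Myl6 had 2 windows, with E-boxes in both and a TATA box in one for Myl2, and an E-box in one and a CArG box in the other for Myl6. These matches are a description of letters and not of bound sites.

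Signals are linear intensities in arbitrary units on arrays with nearly equal trimmed means, and the median of an array was 187 to 197. Signals below 120.8, the 40th percentile of all values, were set to that floor before log2 was taken. A probe set was measured in a comparison if either of the compared pools had both of its arrays above the floor. A call, higher or lower, needed a 2-fold difference between pool means and the same direction in all 4 pairings across the pools. Control A and isometric B differed from their partner arrays, with higher 18S ribosomal RNA control signals and brighter fast fibre genes. The 5' part of 18S rRNA, for example, read 11851 and 21659 on the eccentric arrays, 1952 and 20076 on the isometric arrays and 29884 and 9036 on the control arrays. Over 125 probe sets with mean signals above 10000, array A exceeded array B by a median log2 of 0.05 in the eccentric pool, -0.33 in the isometric pool and 0.19 in the control pool.

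The 3 comparisons ask how lengthening contractions, contractions at fixed length and the difference between them were reflected in the muscle 2 days later, and they share pools. Mybph was the only member called in any of them, and it was called higher in all 3. Among the 6 light chain probe sets above the floor, none reached a 2-fold difference. Both Mylpf probe sets and that of Myl3 were lower in the eccentric than in the isometric pool on every array. Myl1 could not be separated between the eccentric and isometric pools or the isometric and control pools, and the 2 probe sets of Myl4 disagreed about the direction relative to control.

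**Figure D1:**
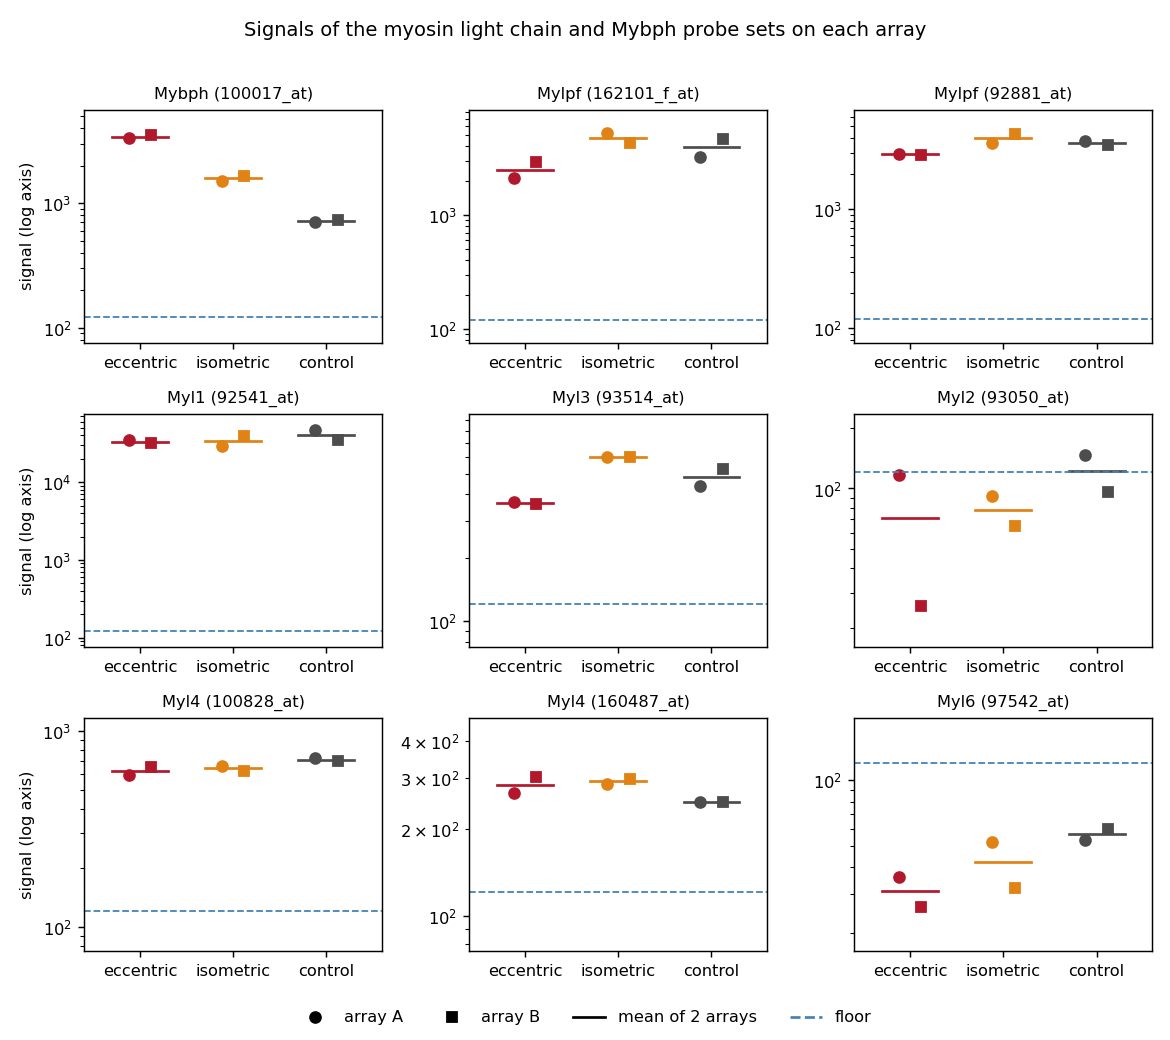
Signal of each of the 9 probe sets (log axis, arbitrary units) on the A arrays (circles) and B arrays (squares) of the eccentric, isometric and control pools, with the mean of 2 arrays (line) and the floor of 120.8 (dashed line). Mybph steps down from the eccentric to the isometric to the control pool with no overlap, Mylpf and Myl3 are lowest in the eccentric pool, and Myl2 and Myl6 lie around or below the floor.

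Mybph showed one order of pools on all arrays. The Mybph probe set 100017_at read 3304 and 3514 on the eccentric arrays, 1509 and 1663 on the isometric arrays, and 701 and 737 on the control arrays. The arrays of each pool lay close together and those of different pools did not overlap. The means were 3409 ± 148 in the eccentric, 1586 ± 109 in the isometric and 719 ± 25.6 in the control pool (SD, n = 2 arrays of 1 pool each).

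Against the control pool, the Mybph signal was 4.74-fold higher in the eccentric pool, a log2 difference of 2.25 with the 4 pairings between 2.16 and 2.33. In the isometric pool it was 2.21-fold higher than in the control pool, a log2 difference of 1.14 with pairings between 1.03 and 1.25. The eccentric pool exceeded the isometric pool 2.15-fold, a log2 difference of 1.10 with pairings between 0.99 and 1.22. By the same rule 4.86% of 7486 measured probe sets were called higher in the eccentric than in the control pool, 0.913% of 7336 in the isometric than in the control pool and 1.64% of 7372 in the eccentric than in the isometric pool. Because Mybph was chosen with its signals known, these shares are printed beside it only as background. Without control A and isometric B the 3 log2 differences were 2.21, 1.03 and 1.17, all still called. With limma on the arrays in place of the size rule, Mybph was called in eccentric against control but not in isometric against control, with or without the array letter as a block, and in eccentric against isometric it was called only without the block.

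The summed signal of macrophage markers was ordered in the same way as Mybph, and so was 1 of 2 signs of RNA quality. The summed signal of 12 macrophage markers was 17693 and 17610 on the eccentric arrays, 11021 and 10489 on the isometric arrays, and 5592 and 5897 on the control arrays. Each of the 12 passed the floor on at least 1 array. Itgam, an integrin of myeloid cells, passed the floor on 1 of the 6 arrays, Ptprc on 3, Cd53 on 4 and Adgre1 on 5. The log2 ratio of 3' to 5' beta-actin signal, which is raised where RNA is degraded, was 0.43 and 0.45 on the eccentric, 0.14 and 0.28 on the isometric, and 0.01 and 0.07 on the control arrays. The same ratio for Gapdh did not separate the pools, at 0.12 and 0.13 on the eccentric, -0.07 and 0.27 on the isometric, and -0.05 and -0.07 on the control arrays. The part of macrophage RNA or of RNA quality in the Mybph result was not tested.

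Over the 6 arrays, the 3 genes whose log2 signals ran most like those of Mybph, among 335 probe sets with pool means at least 2-fold apart, were Stab1, Sec23b and Ctsa, at Pearson correlations of 0.998, 0.998 and 0.997. Points of these correlations share 3 pools, so they describe mainly the order of the pool means. Stab1, a scavenger receptor, read 1658 and 1618 on the eccentric arrays, 850 and 877 on the isometric arrays, and 412 and 419 on the control arrays. Sec23b, a coat protein of transport vesicles, differed by log2 1.40 between the eccentric and control pools and by 0.74 between the isometric and control pools. For Ctsa, a lysosomal protease, these differences were 1.20 and 0.66.

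Mylpf, the regulatory light chain of fast fibres, had the lowest signals in the eccentric pool with both of its probe sets. With probe set 162101_f_at it read 2123 and 2891 on the eccentric arrays, 5254 and 4316 on the isometric arrays, and 3230 and 4624 on the control arrays. Both eccentric arrays lay below the other 4, while the isometric and control arrays overlapped. The suffix _f_ marks a probe set that can also bind transcripts of related genes.

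The log2 difference of this Mylpf probe set was -0.94 for the eccentric minus the isometric pool, a 1.92-fold lower signal, with pairings between -1.31 and -0.58. It was -0.64 for the eccentric minus the control pool, 1.56-fold lower, with pairings between -1.12 and -0.16. For the isometric minus the control pool it was 0.30, with pairings on both sides of 0. The difference between the eccentric and isometric pools depended on single arrays: it was -1.17 without eccentric B and -1.08 without isometric B, which the 2-fold rule called, and -0.72 without eccentric A. Control A does not enter this comparison, so leaving out control A and isometric B together is the same calculation as without isometric B.

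The other Mylpf probe set, 92881_at, read 2903 and 2893 on the eccentric arrays, 3628 and 4314 on the isometric arrays, and 3783 and 3503 on the control arrays. The order was the same, with eccentric arrays below all others and overlap between isometric and control, but the distances were smaller. The log2 differences were -0.45 for eccentric minus isometric, -0.33 for eccentric minus control and 0.12 for isometric minus control. In linear terms Mylpf was 1.37-fold lower in the eccentric than in the isometric pool with this probe set.

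Myl3, the essential light chain of slow fibres and the ventricle, gave nearly equal readings on the 2 arrays of the eccentric and of the isometric pool. Its probe set 93514_at read 368.0 and 361.8 on the eccentric arrays, 602.5 and 603.3 on the isometric arrays, and 440.2 and 529.3 on the control arrays. No array of one pool overlapped with an array of another, and the control arrays lay between those of the other pools. The means were 365 ± 4.39 in the eccentric, 603 ± 0.547 in the isometric and 485 ± 63.0 in the control pool (SD, n = 2 arrays of 1 pool each).

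The Myl3 signal was thus 1.65-fold lower in the eccentric than in the isometric pool, a log2 difference of -0.72 with pairings between -0.74 and -0.71. The eccentric minus control difference was -0.40, with pairings between -0.55 and -0.26, and the isometric minus control difference was 0.32, with pairings between 0.19 and 0.45. None reached 2-fold. Without control A and isometric B the 3 differences were -0.72, -0.54 and 0.19 in the same order.

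**Figure D2:**
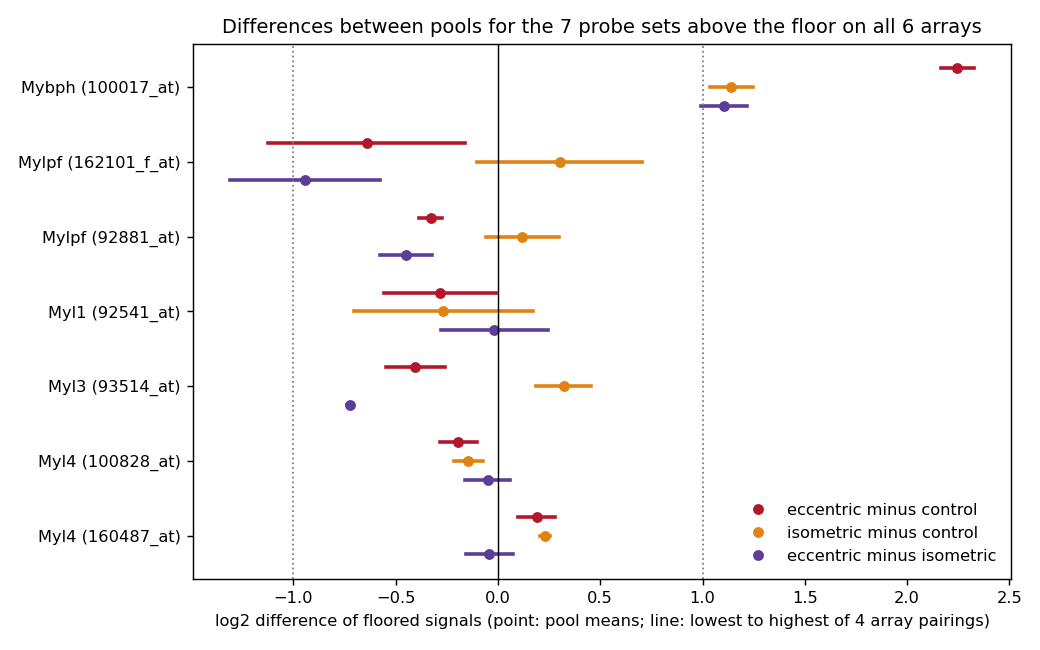
Log2 differences between pools for the 7 probe sets above the floor on all 6 arrays, with points for the difference of pool means, lines from the lowest to the highest of 4 array pairings, and dotted lines at the 2-fold threshold. Mybph lies past the threshold in all 3 comparisons, and both Mylpf probe sets and Myl3 lie below 0 in eccentric minus isometric with all 4 pairings.

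Myl1, the essential light chain of fast fibres, differed as much between arrays of one pool as between pools. The Myl1 probe set 92541_at read 34372 and 32152 on the eccentric arrays, 29033 and 38997 on the isometric arrays, and 47332 and 34622 on the control arrays. The highest reading came from control A and the next from isometric B, the arrays with the higher 18S rRNA signal within their pools. Both eccentric arrays lay below both control arrays, by a log2 of at least 0.01, and the isometric arrays overlapped with those of the other pools.

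The log2 differences of Myl1 were -0.28 for eccentric minus control, -0.27 for isometric minus control and -0.02 for eccentric minus isometric. Within pools, array A minus array B came to 0.10 in the eccentric, -0.43 in the isometric and 0.45 in the control pool. Without control A and isometric B the Myl1 differences were -0.06 for eccentric minus control, -0.25 for isometric minus control and 0.20 for eccentric minus isometric. The size of the first and the direction of the last thus rested on these arrays. After quantile normalization of all arrays, Myl1 was at 0.03 for eccentric minus control and at 0.16 for eccentric minus isometric, both with the opposite sign.

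Myl4, the atrial and embryonic essential chain, was measured by 2 probe sets that differed in direction. With probe set 100828_at Myl4 read 594.1 and 650.3 on the eccentric arrays, 663.5 and 623.6 on the isometric arrays, and 723.8 and 698.5 on the control arrays. With 160487_at it read 265.5 and 300.7 on the eccentric arrays, 285.9 and 295.6 on the isometric arrays, and 247.6 and 248.0 on the control arrays. By the first probe set both contracted pools were lower than control on all arrays, and by the second both were higher.

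The Myl4 log2 differences were -0.19 and 0.19 with the 2 probe sets for eccentric minus control, and -0.14 and 0.23 for isometric minus control. Between the eccentric and isometric pools the arrays overlapped with both probe sets, at -0.05 and -0.04. The data thus give no single direction for Myl4.

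Myl2 (probe set 93050_at), the regulatory chain of slow fibres and the ventricle, read 116.5 and 25.8 on the eccentric arrays, 91.8 and 65.1 on the isometric arrays, and 147.5 and 96.5 on the control arrays. Only control A exceeded the floor, so Myl2 was not measured in any comparison. Myl6 (probe set 97542_at), the cytoplasmic essential chain, read 35.9 and 26.3 on the eccentric arrays, 52.3 and 32.1 on the isometric arrays, and 53.1 and 59.9 on the control arrays. All 6 values lay under the floor, where signals have no usable order. A signal under the floor says only that this probe set gave none above it, since Myl6 is a widely expressed gene.

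Of the 6 measured light chain probe sets, 5 were below 0 for eccentric minus control, but 4 after quantile normalization and 2 after scaling to the fast fibre markers of this muscle. Their median log2 difference was -0.31. For isometric minus control 2 were below and 4 above 0 under all 3 scalings, with a median of 0.18. For eccentric minus isometric all 6 were below 0, with a median of -0.25, but 5 after quantile normalization and 3 after scaling to the markers. The medians over all measured probe sets were -0.03, -0.01 and 0.02 in the same order. The arrays of the pools did not overlap for 6 of 6 light chain probe sets in eccentric against control, where 61.6% of all measured probe sets did not, for 3 of 6 in isometric against control, where 38.0% did not, and for 3 of 6 in eccentric against isometric, where 52.6% did not. No light chain probe set was called lower, against 1.11%, 0.409% and 0.61% of all measured probe sets in the 3 comparisons. Counts of light chains that go one way include 2 probe sets each of Mylpf and Myl4.

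The fast fibre genes among which Mylpf and Myl1 belong were read from 7 markers. All of them, including the fast troponins Tnnt3, Tnni2 and Tnnc2, lay above the floor on all arrays of this fast muscle. None was called in any comparison. All 7 were below 0 in each comparison, but after quantile normalization 6, 1 and 6 were, in the order eccentric minus control, isometric minus control and eccentric minus isometric. Their median log2 differences in that order were -0.32, -0.07 and -0.25, and -0.05, 0.03 and -0.11 after quantile normalization. The widest was that of Casq1, the calcium store protein of fast fibres, at -0.67 for eccentric minus control and -0.67 for eccentric minus isometric. Their summed signal was 174643 and 163364 on the eccentric, 165691 and 252453 on the isometric, and 238872 and 192828 on the control arrays, highest on isometric B and control A. Without these 2 arrays the marker medians were -0.17, -0.22 and 0.01, and for eccentric minus isometric only 3 of 7 were then below 0.

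**Figure D3:**
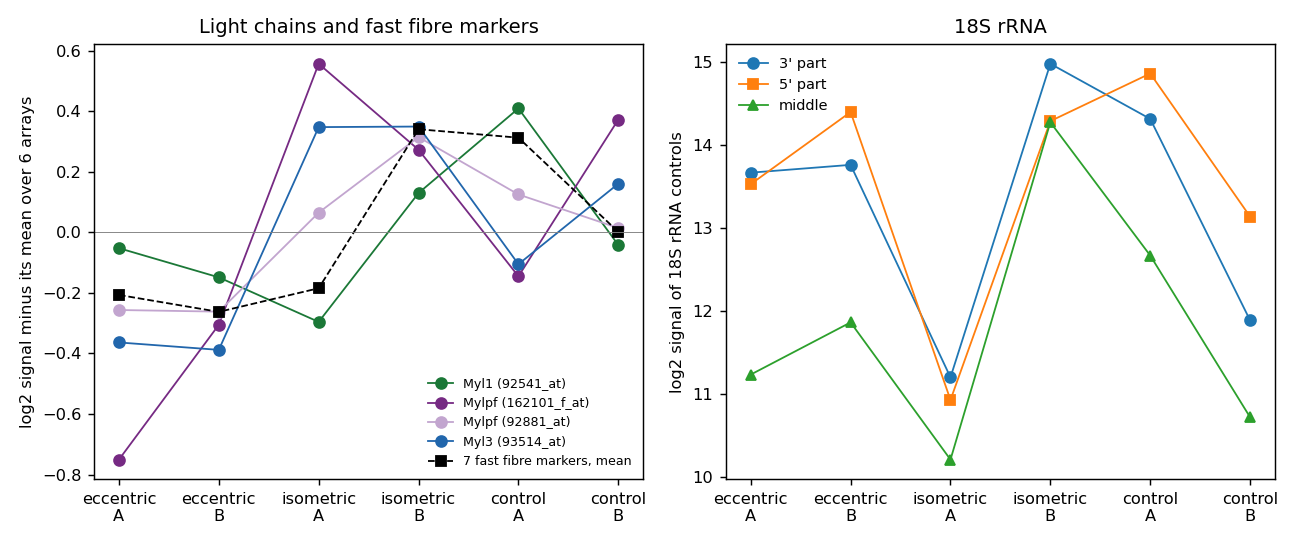
Left, log2 signal minus its mean over 6 arrays for Myl1, both Mylpf probe sets, Myl3 and the mean of 7 fast fibre markers. Right, log2 signal of 3 control probe sets for 18S ribosomal RNA. Control A and isometric B exceed their partner arrays for Myl1, for the marker mean and for all 3 18S controls, while Mylpf 162101_f_at and Myl3 are lower on control A than on control B.

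Relative to the mean of the fast fibre markers, the Mybph differences were 2.64 for eccentric minus control, 1.22 for isometric minus control and 1.42 for eccentric minus isometric, on the log2 scale. This scaling, chosen after the values were seen, moved the median over all measured probe sets to 0.36, 0.06 and 0.33. For eccentric minus control on this scale, Myl1 was at 0.11 and Myl3 at -0.01. Mylpf was at -0.25 with 162101_f_at and 0.06 with 92881_at, so that Myl1 and one Mylpf probe set changed sign, all of them below the shifted median. The Myl4 probe set 100828_at also changed sign, to 0.20, and 160487_at stood at 0.58. For eccentric minus isometric, Mylpf stayed below 0 at -0.63 and -0.14 and Myl3 at -0.41, while Myl1 came to 0.30 and Myl4 to 0.26 and 0.27.

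The wider myosin system was read from 1 probe set per gene, the brightest. Over all genes read in this way, 5.16% of 5682 were called higher and 1.06% lower in the eccentric than in the control pool. The shares were 0.915% and 0.323% of 5574 for the isometric against the control pool, and 1.73% and 0.676% of 5622 for the eccentric against the isometric pool. None of 3 other measured light chains was called. Myl12b, a regulatory chain of non-muscle myosin, was at 0.65 and Myl9, its smooth muscle counterpart, at -0.55 for eccentric minus control, and Myl6b, an essential chain, was at 0.74 for isometric minus control and -0.32 for eccentric minus isometric.

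No sarcomeric heavy chain was called. Of 7 on the array, 4 were measured against control and 3 between the contracted pools, with medians of -0.10, 0.10 and -0.20. Myh4, the heavy chain of the fastest fibres, averaged 35814 ± 639 in the eccentric, 39425 ± 10333 in the isometric and 43539 ± 8147 in the control pool (SD, n = 2 arrays of 1 pool each). Its log2 differences were -0.27 for eccentric minus control and -0.16 for isometric minus control. Myh7, the slow heavy chain, had a probe set with the suffix _f_, open to transcripts of related genes. It read 167.1 and 312.4 on the eccentric, 399.8 and 431.2 on the isometric, and 126.9 and 423.9 on the control arrays. Its log2 difference of 0.84 for isometric minus control rested on control A and was -0.03 without it, and that of -0.86 for eccentric minus isometric ranged from -1.31 to -0.41 with single arrays left out. Myh8, the perinatal chain, was at 0.20 for eccentric minus control, and at -0.17 without eccentric A. The latter rests on the floor, since eccentric B (119.4) lay under it. Myh2, Myh3 and Myh6 exceeded the floor on no array, so the embryonic chain Myh3 was not detected above it in any pool.

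Of 3 measured heavy chains of smooth muscle and non-muscle cells, none was called. Myh9 was at 0.45 and Myh11 at -0.43 for eccentric minus control, while Myh14 was at -0.16 for isometric minus control and 0.25 for eccentric minus isometric. Nor was any called of the other 3 myosin-binding and M-band proteins, whose medians were -0.45, 0.15 and -0.52. Myom1 and Myom2, which link thick filaments at the M-band, were at -0.49 and -0.45 for eccentric minus control and at -0.64 and -0.52 for eccentric minus isometric. Mybpc3, the cardiac relative of Mybph among the myosin-binding proteins, was at 0.20 for eccentric minus control and 0.39 for isometric minus control. Of the kinases, phosphatase subunits and calmodulin that act on regulatory light chains 3 were measured and none called, with Ppp1cb, a catalytic phosphatase subunit, at -0.77 and Calm2, a calmodulin, at -0.13 for eccentric minus control. Mylk, a light chain kinase, was at -0.15 for isometric minus control.

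**Figure D4:**
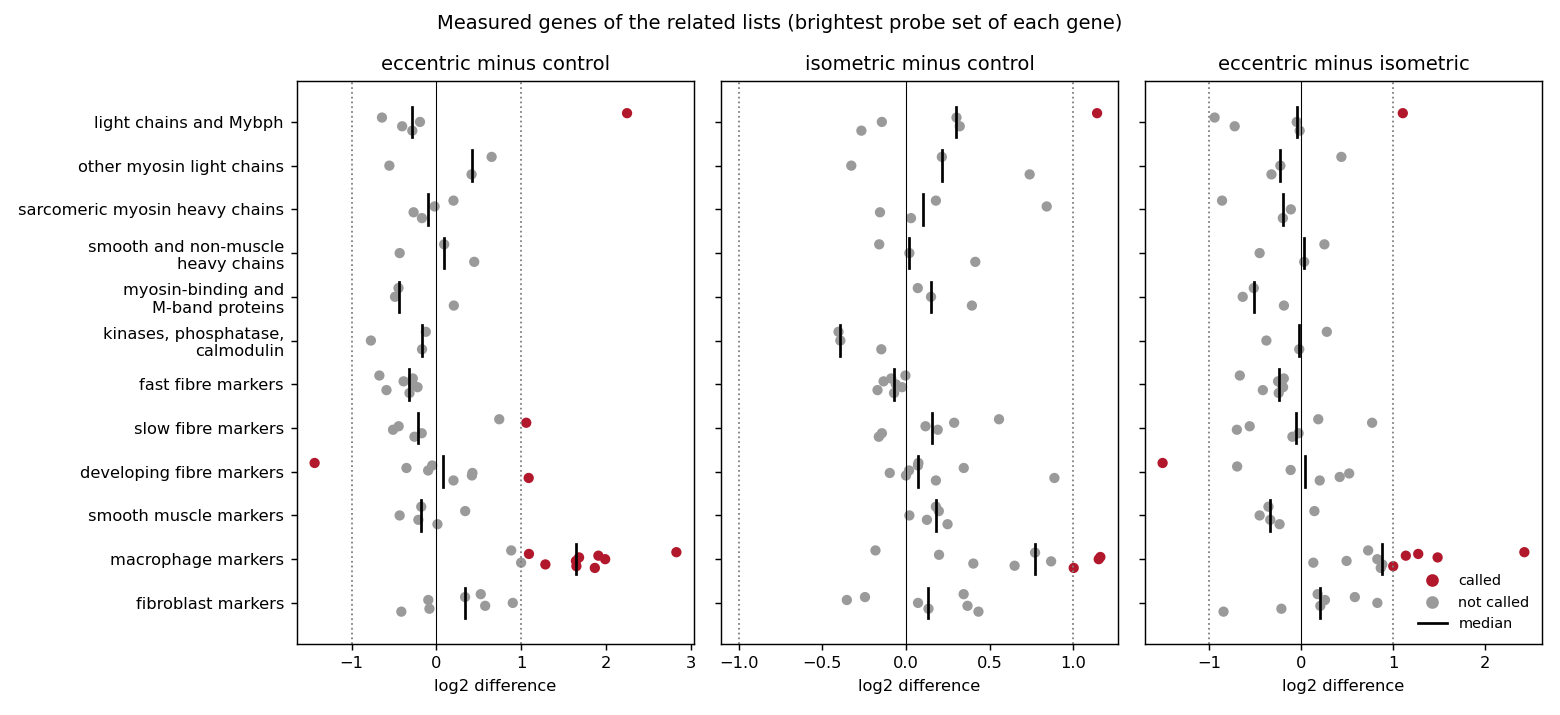
Log2 differences between pools for the measured genes of each list, 1 point per gene (brightest probe set), with called genes in red, the median as a black bar and dotted lines at the 2-fold threshold. Mybph and most macrophage markers lie past the threshold in eccentric minus control, and no light chain, heavy chain, kinase or fast fibre gene does.

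Other markers placed these values in the muscle. Among 6 slow fibre markers, Atp2a2, the slow calcium pump, was called higher in eccentric minus control, at 1.06, and the medians were -0.22, 0.15 and -0.06. Tnnc1, the slow troponin C, read 104.5 and 251.5 on the eccentric, 262.6 and 305.6 on the isometric, and 206.2 and 299.4 on the control arrays. Its log2 difference of -0.51 for eccentric minus control rested on eccentric A and was 0.02 without it, and that of -0.70 for eccentric minus isometric was -0.17 without it. Without control A, Atp2a2 stood at 0.87 and was no longer called, and Casq2, a calcium store protein, was called higher in the eccentric and isometric pools, whereas without control B it was at -0.02 and -0.21. Of 11 markers of developing or regenerating fibres, 8 were measured against control. Myog, a myogenic transcription factor, was called higher in eccentric minus control at 1.09, but not without eccentric A, at 0.81. Actc1, the actin of the heart and of developing muscle, was called lower at -1.44 in eccentric minus control and at -1.51 in eccentric minus isometric, with a probe set open to related actins. Myh3, Myf5 and Tnnt2 of this list exceeded the floor on no array, and Myog and Actc1 kept these calls without control A and isometric B.

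Of the macrophage markers 9 of 11 measured were called higher and 0 lower in eccentric minus control, with a median of 1.65. The called genes were Cd68, Adgre1, Csf1r, Lyz2, Msr1, Mrc1, Tyrobp, Fcgr1 and Cd53. In isometric minus control 3 of 9 (Cd68, Lyz2 and Msr1) were called higher and 0 lower, at a median of 0.77, and in eccentric minus isometric 5 of 11 (Adgre1, Mrc1, Tyrobp, Fcgr1 and Cd53) and 0, at a median of 0.88. Without isometric B, Cd68 and Msr1 were no longer called in isometric minus control, at 0.72 and 0.85, nor was Cd68 without control B, at 0.83. Adgre1 lost its call in eccentric minus isometric without eccentric A or isometric A, at 0.95 and 0.85. Fcgr1 lost that in eccentric minus control without control A, at 0.997. Single arrays left out also added calls, for Cd14 in eccentric minus control, Tyrobp in isometric minus control, and Cd68 and Msr1 in eccentric minus isometric. The widest of them was Cd53, a leukocyte membrane protein, at 2.83 and 2.43 for the eccentric minus the control and the isometric pool, and the widest in isometric minus control was Msr1, a scavenger receptor, at 1.16. Ptprc, the common leukocyte antigen, was at 0.88 for eccentric minus control, with both control arrays under the floor (18.2 and 100.6). Fcgr1, an antibody receptor, was at 1.09 for eccentric minus control and at -0.18 for isometric minus control. Without control A and isometric B the counts were 8 of 11, 1 of 11 and 7 of 11. No smooth muscle marker of 5 measured and no fibroblast marker of 7 was called in any comparison. Their medians in eccentric minus control were -0.18 and 0.34, with the collagen gene Col1a1 at -0.41 and the growth factor receptor Pdgfra at 0.90 at the ends of the fibroblast list.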

How the data were processed

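Per the labels, muscle RNA of 4 mice was pooled per group and each of 3 pools was hybridised to 2 arrays. The deposited value is a linear intensity for each of 12488 probe sets on each array, 66 of them controls. The authors' software, background correction and probe summary were not given in the sources used here. Trimmed means of the 6 arrays, with 2% removed at each end, were equal at 500.3, so each value is relative to the rest of its array. Genes were named through the platform annotation, which gave 1 gene for 10833 probe sets and several genes for 396, which were left unnamed.

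The floor was the 40th percentile. A 2-fold rule with 4 agreeing pairings replaced a test, since 2 arrays of 1 pool are technical replicates, and their number limits the precision. SDs are on signals, and folds are ratios of geometric means. The rule was tried on simulated arrays with array noise only, where changes larger than its threshold were planted in bright probe sets. That setting covers neither changes near the threshold, nor dim probe sets, nor the spread between animals. All 9 probe sets of the 7 members are reported. From each related list the text names the called genes and some of the measured genes with the highest or lowest difference in a comparison, and for Mybph the 3 genes most like it. Members, lists and rules were chosen with earlier results of these data known. Alternatives were quantile normalization, a floor at the 20th percentile, no filter, a 1.5-fold rule, 1 probe set per gene, single arrays left out, and limma on the arrays (Benjamini-Hochberg at 0.05), which compares pools only. Scaling to fast fibre markers, and list values without control A and isometric B or single arrays, were added after seeing the data. Promoters came from RefSeq on GRCm38.p6. Python 3.11.15, numpy 2.4.6, pandas 2.3.3, R 4.3.3 and limma 3.58.1 were used.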

Additional observations from a re-analysis of the deposited data

How the results depend on the processing

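Each pool is 1 sample, so no setting measures the spread between animals. Of 267 differences of member probe sets recomputed under an alternative, 258 kept their side of the call rule, 3 lost a call, 6 gained one, and no called difference changed sign. Many of the 258 were fixed in advance. The measured members lay above the floor on all 6 arrays, so a lower floor, no filter or 1 probe set per gene could not change them. A 1.5-fold rule could only add calls. The call of Mybph in eccentric against control held under all 13 alternatives, at log2 differences of 2.20 to 2.64, including those that could not remove it. With a 1.5-fold rule, 1 member probe set was lower in eccentric minus control (Mylpf 162101_f_at) and 2 in eccentric minus isometric (that of Mylpf and Myl3), against 0 at 2-fold. In eccentric minus isometric, single arrays left out gave 0 to 1 members lower. Leaving out control A and isometric B gave 1, which in this comparison is the same as leaving out isometric B alone. With limma, 0 members were called higher in isometric minus control, with and without the array letter as a replicate block, and with the block 0 in eccentric minus isometric, against 1 each by the size rule.

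Over all probe sets the size rule called 447 for eccentric minus control, 868 with the lower floor, 1465 at 1.5-fold and 480 to 626 with single arrays left out. It called 97 for isometric minus control, 418 with the lower floor, 491 at 1.5-fold, 122 to 280 with single arrays left out and 206 without control A and isometric B. It called 166 for eccentric minus isometric, 475 with the lower floor, 925 at 1.5-fold, 227 to 280 with single arrays left out and 261 without control A and isometric B. For this comparison the last setting equals leaving out isometric B alone. Leaving arrays out leaves fewer pairings that must agree. By limma with Benjamini-Hochberg adjustment 636, 0 and 66 probe sets passed (1987, 770 and 1416 at an unadjusted p below 0.05). With the letter as a replicate block 320, 0 and 9 passed (1815, 681 and 1258 unadjusted). Over 6243 probe sets above the floor on all arrays, A minus B correlated at 0.04 between the eccentric and control pools. It correlated at -0.15 between the isometric and control pools and at -0.04 between the eccentric and isometric pools. Control A and isometric B, the arrays that stood apart, carry different letters, so these correlations cannot settle whether letters pair arrays. Among the members only the Myl2 and Myl6 probe sets had readings under the floor, which is a percentile of all values and not a measured background.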
